A study of Mus musculus with 6 samples.

Results

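The genes described here are 42 genes of the endoplasmic reticulum (ER) protein-folding machinery and of the unfolded protein response (UPR). They were chosen by name for these roles, with earlier results of these data known, and divided into 8 groups by function. All 42 were found among the 55416 genes of the count table, and 41 passed the filter on low counts; the 1 that did not was Derl3.

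The ER is where secreted and membrane proteins are folded, by lumenal chaperones of the Hsp70 and Hsp90 families, by lectin chaperones that read the sugar chain of a new glycoprotein, and by oxidoreductases that form disulfide bonds. When unfolded proteins accumulate, the membrane sensors ATF6, IRE1 (gene Ern1) and PERK (gene Eif2ak3) signal to the nucleus. ATF6 and the transcription factor XBP1, which IRE1 activates by splicing its mRNA, raise chaperone and degradation genes, while PERK slows translation and favours ATF4, which raises amino acid and stress genes. In skeletal muscle the same membrane system also forms the sarcoplasmic reticulum, the calcium store of the fiber.

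RNA sequencing was performed on tibialis anterior (TA) muscle, a fast hindlimb muscle, of 3 wild-type (WT) and 3 SELENOW knockout (KO) mice, all aged naturally to 24 months with no other treatment given in the labels. SELENOW is a small selenoprotein abundant in skeletal muscle. Per the study, both lines had a C57BL/6N background, aged mice were male, and the KO line was made by deleting exon 4 of the gene with CRISPR-Cas9. The comparison asks which transcripts differ between aged KO and aged WT muscle.

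Libraries held 25351976 to 29111213 counted fragments. Selenow itself was at 268, 244.6 and 219 CPM (counts scaled to library size) in WT and 193, 212 and 209.9 CPM in KO, with a log2 fold change of -0.25 ± 0.142 (SE) and an edgeR adjusted p of 0.604, and since the counts are per gene, the deleted exon was not measured on its own. Mitochondrially encoded genes took 29.1% to 37.3% of the counts in WT and 35.4% to 40.3% in KO. The 12 markers of TA muscle fibers were all detected, with none past the thresholds used below, and summed to 99700 to 128000 CPM in WT and 109000 to 126000 CPM in KO.

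Many ER chaperone genes carry the ER stress response element (ERSE), which ATF6 and XBP1 bind together with NF-Y, in the promoter. RefSeq promoters on build GRCm38.p6, running from 250 bases before to 50 bases after the transcription start, were held for 36 of the 42 genes. The sequence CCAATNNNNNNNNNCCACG, searched on both strands, was in 39 of 32851 promoters (0.119%) and in those of 10 of the 36 genes (27.8%). Counted by gene rather than by promoter, it was in 19 of the 10336 tested genes with a promoter held (0.184%). The 11 matches in the set are shown because they recur across the chaperone, oxidoreductase and degradation groups. Each is written 5′ to 3′ along the element, with its fixed ends in capitals and its first and last position counted from the transcription start.
Hspa5, chr2, -65 to -47: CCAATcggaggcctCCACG
Hsp90b1, chr10, -212 to -194: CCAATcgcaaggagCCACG
Hsp90b1, chr10, -107 to -89: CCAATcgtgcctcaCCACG
Calr, chr8, -162 to -144: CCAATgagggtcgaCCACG
Canx, chr11, -145 to -127: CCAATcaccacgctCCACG
Dnajc3, chr14, -105 to -87: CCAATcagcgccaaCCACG
Creld2, chr15, -126 to -108: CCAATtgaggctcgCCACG
Pdia6, chr12, -98 to -80: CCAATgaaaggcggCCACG
Ero1lb, chr13, -201 to -183: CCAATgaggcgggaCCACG
Syvn1, chr19, -44 to -26: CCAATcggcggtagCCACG
Derl3, chr10, -156 to -138: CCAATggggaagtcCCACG

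Hspa5, the gene of the set with the highest level per length in WT, is shown with its whole promoter at chr2:34771840-34772139 on the plus strand. The exact match to the ERSE sequence is in capitals, and inexact matches were not searched or marked.
Hspa5: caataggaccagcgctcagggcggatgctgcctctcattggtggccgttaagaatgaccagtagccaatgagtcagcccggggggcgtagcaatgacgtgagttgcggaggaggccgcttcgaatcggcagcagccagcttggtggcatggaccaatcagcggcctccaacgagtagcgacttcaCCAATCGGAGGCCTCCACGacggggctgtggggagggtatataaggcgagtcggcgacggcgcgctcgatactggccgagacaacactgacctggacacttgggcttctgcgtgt

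The shorter ERSE-II, ATTGGNCCACG, was in 12 promoters (0.0365%), among them those of Dnajb11 and Herpud1. The C/EBP-ATF response element, which ATF4 binds, was searched as TGATGNAA and was in 1304 promoters (3.97%) and in 5 of the 36 (13.9%), those of Asns, Chac1, Trib3, Herpud1 and Txndc5. The UPR element TGACGTGG was in 222 promoters (0.676%), and of these genes only in that of Txndc5. Counted by gene over the 10336 tested genes with a promoter held, ERSE-II was in 9 (0.0871%), the C/EBP-ATF element in 284 (2.75%) and the UPR element in 105 (1.02%). ERSE, ERSE-II and the UPR element share the letters CCACG on one strand or the other, so 1 stretch can match more than 1 of them. A match describes the letters and does not show binding.

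As compared with WT, 7 genes of the set, 6 of them chaperones, cochaperones or oxidoreductases, were called lower in KO muscle and none was called higher. Genes were called at the study's own thresholds, which are a p of less than 0.05 before adjustment together with a KO to WT ratio above 1.5 or below 0.7, and the p came from the quasi-likelihood test of edgeR. Among the 41 that were tested, 7 (17.1%) were called lower, namely Hspa5, Hyou1, Manf, Sdf2l1, Dnajb9, Pdia6 and Atf6, where 491 of all 15623 genes (3.14%) were. None was called higher, where 345 of all genes (2.21%) were. By p alone, 15 of the 41 (36.6%) were lower and none higher, against 5.16% and 4.73% of all genes. Every KO library lay below every WT library for 14 of the 41 (34.1%), against 7.87% of all genes, and above for 1, against 7.53%. By sign alone, 34 of the 41 (82.9%) were lower, against 50.6% of all genes. The median log2 fold change was -0.35 over the 41 and -0.0042 over all genes.

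None of these calls passed Benjamini-Hochberg adjustment over all genes in edgeR, where the lowest adjusted p in the set was 0.274 and the lowest of any gene was 0.0588. At an unadjusted p under 0.05 edgeR had 806 genes lower and 739 higher. DESeq2 on the same genes gave 45 genes with an adjusted p under 0.05, and 3 of them belonged to the set: Hspa5 (0.00178), Manf (0.0125) and Hyou1 (0.0295). The 7 calls are therefore at the study's thresholds and not at a false discovery rate, and the summary over the 41 is a description with no test of its own. Because the genes were chosen with earlier results of these data known, the shares of the 41 are not independent support for a difference.

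**Figure D1:**
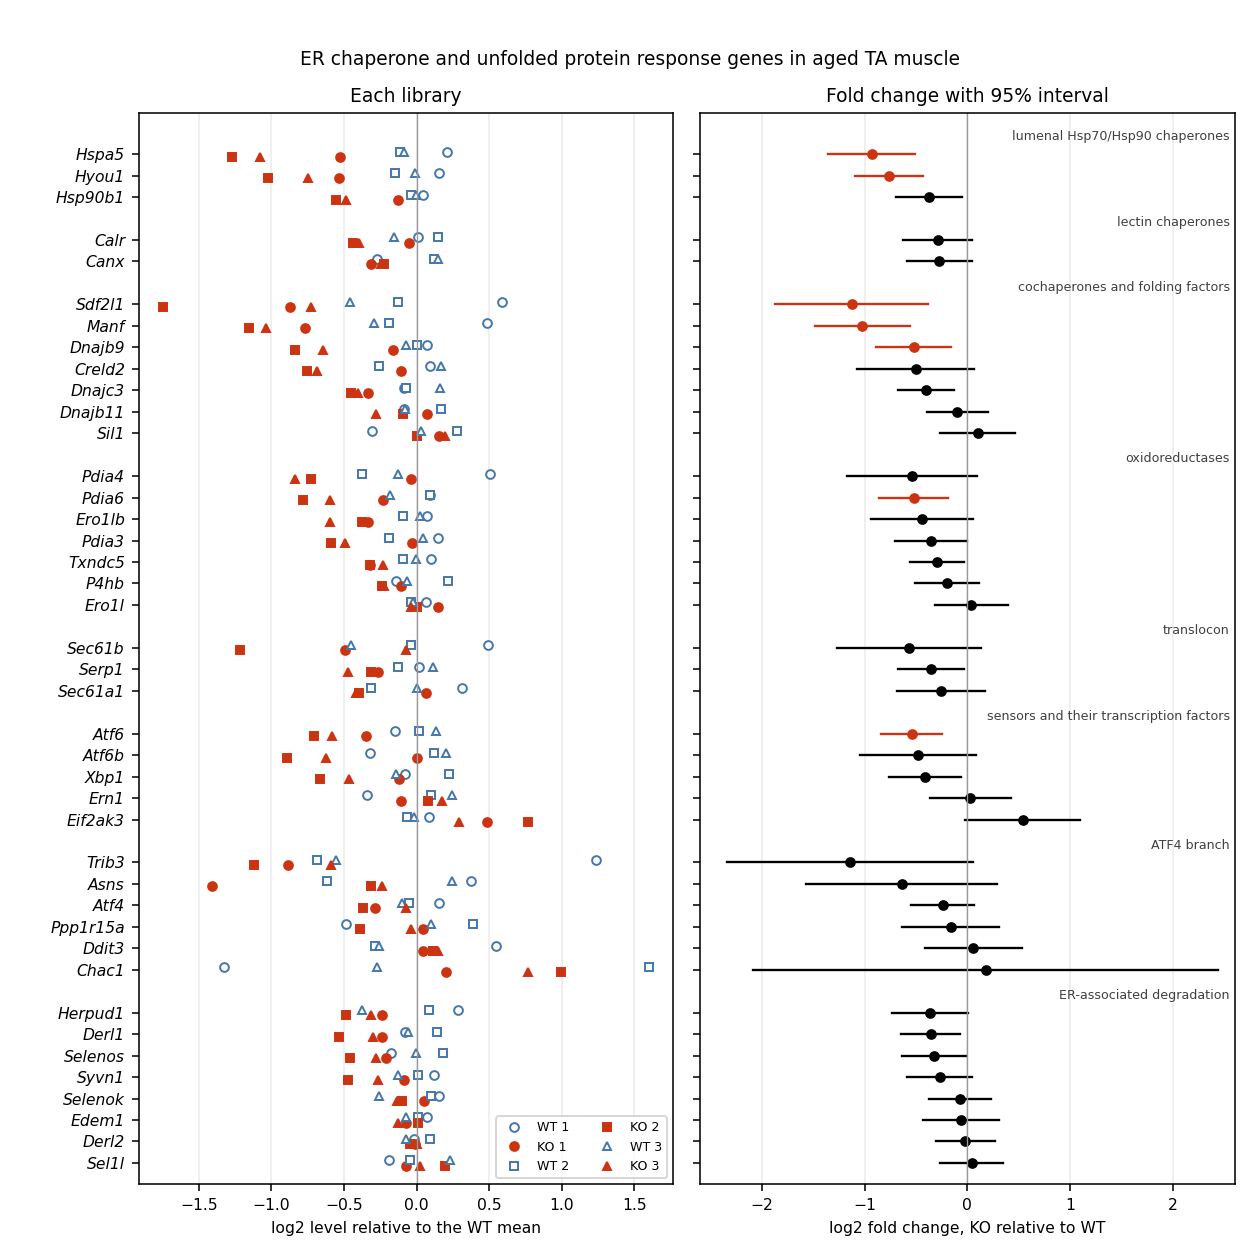
Each of the 41 tested genes by role. Left, log2 level of each library relative to the WT mean (WT open blue, KO filled red, one symbol shape per replicate number); right, log2 fold change of KO relative to WT with its 95% interval, in red where a gene was called lower. The intervals of the 7 called genes lie below 0, and Eif2ak3 is the 1 gene with all KO libraries above all WT libraries.

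The lumenal Hsp70 and Hsp90 chaperones had the most negative median of the 8 groups. All 3 had every KO library below every WT library and a p under 0.05, with a median log2 fold change of -0.76, and 2 of the 3 were called lower. Hspa5 encodes BiP, the ER Hsp70 that binds unfolded chains and keeps the UPR sensors inactive. It measured 258.5, 206.2 and 210.2 CPM in WT and 155.3, 92.8 and 105.9 CPM in KO. The lowest WT library was above the highest KO library, and KO replicate 1 stood nearest to WT. The log2 fold change was -0.93 ± 0.195 (SE), a KO to WT ratio of 0.525, with an edgeR adjusted p of 0.274.

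Hyou1 encodes GRP170, the large Hsp70-like protein that helps BiP exchange its nucleotide. It measured 18.6, 15.1 and 16.6 CPM in WT and 11.5, 8.2 and 9.95 CPM in KO, so that again no KO library reached the WT range. Its log2 fold change was -0.76 ± 0.153 (SE), with an edgeR adjusted p of 0.274. Hsp90b1 encodes GRP94, the ER Hsp90. It measured 112.1, 106.3 and 108.6 CPM in WT and 99.7, 74.0 and 77.9 CPM in KO, a log2 fold change of -0.38 ± 0.148 (SE) that did not reach the fold threshold. The libraries of the genotypes did not overlap for Hsp90b1, with KO replicate 1 nearest to WT.

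**Figure D2:**
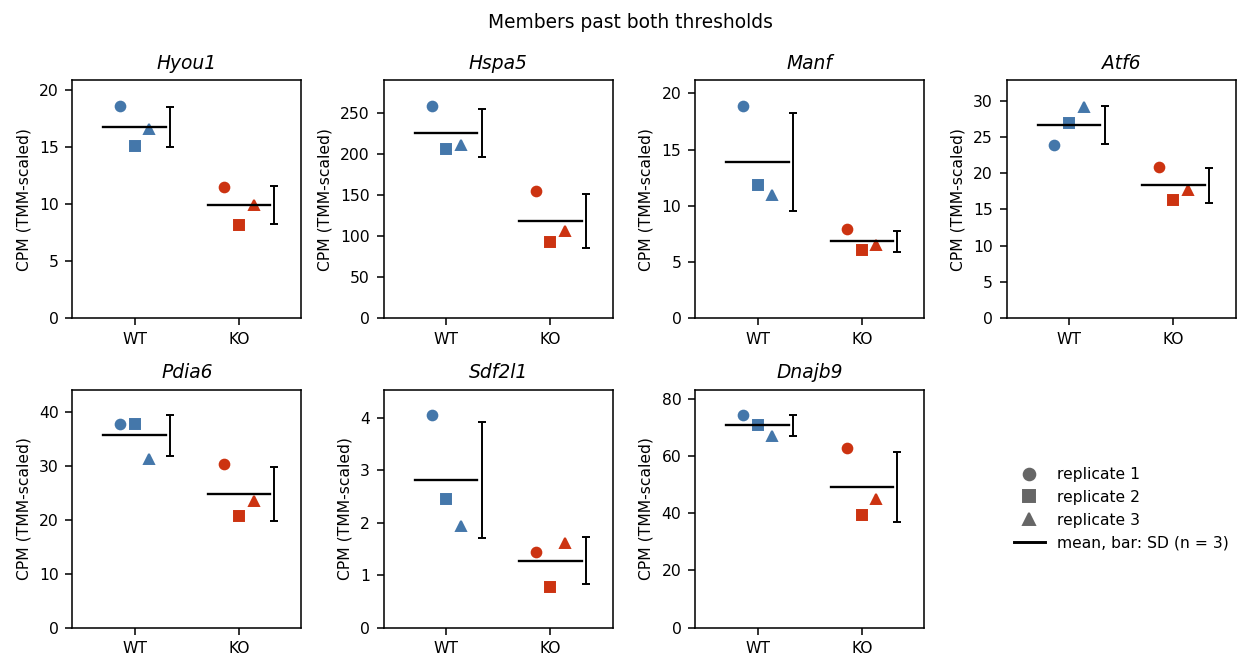
CPM in each library for the 7 genes called lower in KO, with the mean as a line and the SD as a bar (3 libraries per genotype; axes start at 0). In every panel the highest KO point is below the lowest WT point, and KO replicate 2 is the lowest point in all 7.

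Among the 7 cochaperones and folding factors, 3 were called lower, 6 were lower by sign and the median log2 fold change was -0.50. Manf encodes a secreted neurotrophic factor retained in the ER by BiP. It measured 18.9, 11.8 and 11 CPM in WT and 7.9, 6.03 and 6.55 CPM in KO. WT replicate 1 was well above the other WT libraries, and those were still above all KO libraries. The log2 fold change was -1.02 ± 0.211 (SE), with an edgeR adjusted p of 0.275.

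Sdf2l1, part of the BiP chaperone complex, had the most negative fold change of the called genes. It measured 4.06, 2.46 and 1.94 CPM in WT and 1.45, 0.775 and 1.61 CPM in KO, from counts of 59 to 100 fragments in WT and 19 to 43 in KO. The gap between the lowest WT and the highest KO library was small beside the spread within WT. Its log2 fold change was -1.13 ± 0.342 (SE), with an edgeR adjusted p of 0.338. Dnajb9 encodes ERdj4, a J-domain protein that restrains IRE1 through BiP. It measured 74.35, 70.8 and 67.2 CPM in WT and 63.0, 39.5 and 45.1 CPM in KO, with a log2 fold change of -0.52 ± 0.17 (SE) and an edgeR adjusted p of 0.349. The KO to WT ratio of 0.695 for Dnajb9 sat at the edge of the fold threshold. KO replicate 1 lay close to WT, and Dnajb9 was no longer called without WT replicate 1, KO replicate 2 or KO replicate 3.

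Dnajc3, which encodes the p58IPK cochaperone, measured 34.1, 34.4 and 40.6 CPM in WT and 28.7, 26.5 and 27.5 CPM in KO, with a log2 fold change of -0.40 ± 0.125 (SE). It had an unadjusted p of 0.00726 and a KO to WT ratio of 0.757, short of the fold threshold. Creld2, an ER stress-inducible protein with a log2 fold change of -0.50, had overlapping libraries. Dnajb11, which encodes the J-domain partner ERdj3, was at -0.10, and Sil1, the other nucleotide exchange factor of BiP, was at 0.10 with 6.08 to 9.12 CPM in WT and 7.54 to 8.64 CPM in KO. The BiP partners thus included both called genes and genes that did not pass the test.

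The 2 lectin chaperones were lower by sign and neither had a p under 0.05. Calr, encoding calreticulin, ranged from 109.2 to 134.8 CPM in WT and 90.1 to 117.7 CPM in KO, with a log2 fold change of -0.29 and a 95% interval of -0.62 to 0.04. Canx, encoding calnexin, was at -0.27 with an interval of -0.59 to 0.04. A change of the size seen for Hspa5 lies outside both intervals.

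Of the 7 oxidoreductases, 1 was called lower and 3 had a p under 0.05. Pdia6, a protein disulfide isomerase that also acts on IRE1 and PERK, measured 37.9, 37.9 and 31.4 CPM in WT and 30.3, 20.7 and 23.6 CPM in KO. The closest libraries, WT replicate 3 and KO replicate 1, lay close together. Its log2 fold change was -0.52 ± 0.156 (SE), with an edgeR adjusted p of 0.324, and the fold ratio of 0.696 sat at the edge of the threshold. Pdia6 was called in 2 of the 6 fits that left out 1 library, the exceptions being those without WT replicate 1, WT replicate 2, KO replicate 2 or KO replicate 3. Txndc5 (-0.29) and Pdia3 (-0.36), both disulfide isomerases, had a p under 0.05 but not the fold. P4hb, the isomerase that is also a subunit of collagen prolyl hydroxylase, was the most abundant of the group and was at -0.20 with overlapping libraries. Pdia4, a further disulfide isomerase, had the most negative value of the group and was not called: it measured 10.99, 5.95 and 7.08 CPM in WT and 7.53, 4.65 and 4.3 CPM in KO, a log2 fold change of -0.54 ± 0.28 (SE) with an interval of -1.17 to 0.10. Its WT libraries spread widely and KO replicate 1 lay above the lower WT libraries. The oxidases that recharge these isomerases differed from each other in value: Ero1lb was at -0.44 with no overlap between genotypes and Ero1l at 0.04 with 4.61 to 4.95 CPM in WT and 4.6 to 5.24 CPM in KO.

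The chaperones, cochaperones and oxidoreductases together made 19 genes, of which 6 (31.6%) were called lower and 10 (52.6%) had no overlap between genotypes, with a median log2 fold change of -0.40. The other 22 tested genes, of the translocon, the sensors, the ATF4 branch and degradation, had 1 called lower (4.55%), with a median of -0.26. In 4 of them (18.2%) every KO library lay below every WT library, and in 1, Eif2ak3, every KO library lay above. Over all genes, 3.14% were called lower, 7.87% lay below in this way and 7.53% above. The difference between these portions of the set was not tested.

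In the translocon group, the channel through which new chains enter the ER, 3 of 3 genes were lower by sign and none was called. Serp1, a stress-associated protein of the channel, measured 8.32, 7.53 and 8.89 CPM in WT and 6.85, 6.61 and 5.91 CPM in KO, with a log2 fold change of -0.35 and an unadjusted p of 0.0317. Sec61b, a small channel subunit, was at -0.57 with a wide interval of -1.27 to 0.13, and Sec61a1, the pore itself, was at -0.25.

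Of the 5 sensors and their transcription factors, 1 was called lower, 2 had a p under 0.05 and 2 were above 0 by sign without passing the test. Atf6 was called lower: it measured 23.9, 26.9 and 29.15 CPM in WT and 20.9, 16.3 and 17.7 CPM in KO, with a log2 fold change of -0.54 ± 0.137 (SE) and an edgeR adjusted p of 0.291. No KO library reached the WT range. The KO to WT ratio of 0.686 lay close to the fold threshold, and the call was lost without WT replicate 3 or KO replicate 2. Xbp1 measured 41.7, 51.4 and 40.1 CPM in WT and 40.6, 27.8 and 32.0 CPM in KO, so that KO replicate 1 lay inside the WT range. Its log2 fold change was -0.41 ± 0.161 (SE) with an unadjusted p of 0.0258; the counts do not separate its spliced from its unspliced mRNA. Atf6b, a relative of Atf6, was at -0.48 with an unadjusted p of 0.0875.

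Eif2ak3, which encodes PERK, measured 1.46, 1.31 and 1.35 CPM in WT and 1.93, 2.37 and 1.68 CPM in KO, every KO library being above every WT library. Its 36 to 42 fragments in WT and 45 to 58 in KO gave a log2 fold change of 0.54 with a 95% interval of -0.02 to 1.10 and an unadjusted p of 0.0586, which does not pass the test; without KO replicate 3 it was called higher. Ern1, which encodes IRE1, was at 0.03 with an interval of -0.36 to 0.42.

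**Figure D3:**
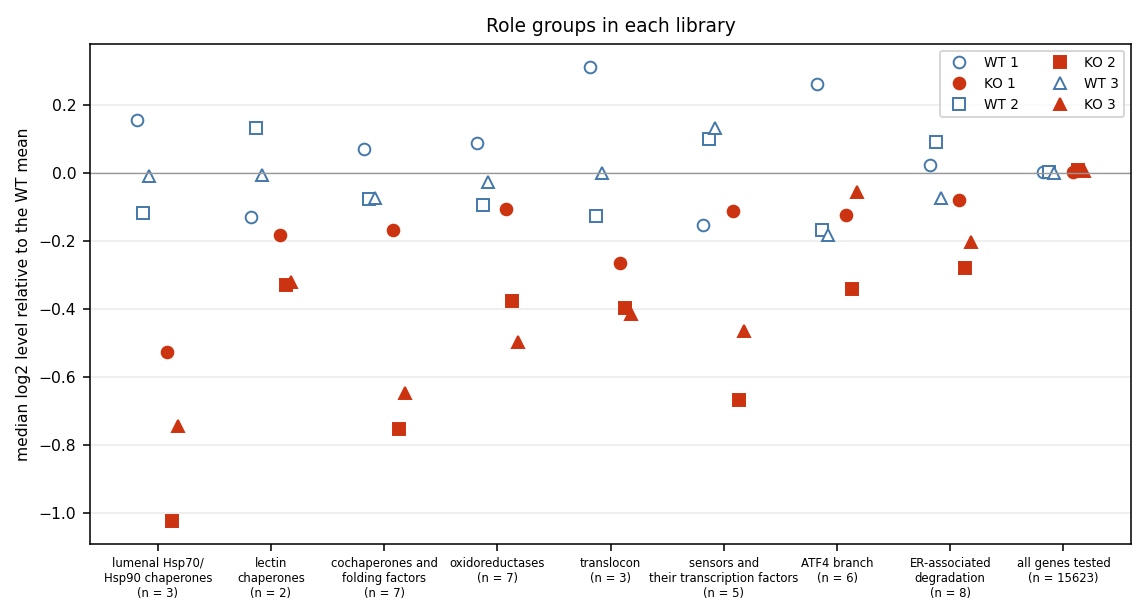
Median log2 level of each role group in each library, relative to the WT mean (WT open blue, KO filled red, one symbol per library), with all 15623 tested genes at the right. KO replicate 1 is the KO library nearest to WT in 7 of the 8 role groups, the exception being the ATF4 branch. The genotypes overlap for the ATF4 branch and for the sensors.

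None of the 6 genes of the ATF4 branch was called, none had a p under 0.05 and none had separate genotypes, with a median log2 fold change of -0.20. Atf4 itself, the transcription factor of the branch, measured 98.1, 85.2 and 82.2 CPM in WT and 72.3, 68.4 and 83.9 CPM in KO, a log2 fold change of -0.24 with an interval of -0.55 to 0.07. Its target Trib3, a pseudokinase, measured 3.29, 0.84 and 0.922 CPM in WT and 0.725, 0.612 and 0.898 CPM in KO. The log2 fold change of -1.15 for Trib3 therefore came mainly from WT replicate 1 and was -0.24 without it, while DESeq2 put Trib3 past both thresholds.

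Chac1, which degrades glutathione, varied most within WT, at 5.27, 40.5 and 11.03 CPM, against 15.35, 26.5 and 22.7 CPM in KO. Its log2 fold change of 0.18 had an interval of -2.08 to 2.44, so these libraries put almost no limit on a difference, and leaving out WT replicate 2 moved it to 1.397 with a call. Asns, asparagine synthetase, was at -0.64 from 9 to 37 fragments per library. Ppp1r15a, which restores translation after PERK, was at -0.16, and Ddit3, the CHOP transcription factor, at 0.05. Within ATF4-branch genes the sign depended on which library was left out for Chac1, Ddit3 and Ppp1r15a.

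ER-associated degradation returns misfolded proteins to the cytosol for the proteasome. Of its 8 tested genes, 7 were lower by sign, 2 had a p under 0.05 and none was called, with a median log2 fold change of -0.17. Derl1, a membrane protein of the exit channel, measured 39.5, 46.0 and 40.1 CPM in WT and 35.4, 28.8 and 33.8 CPM in KO, with a log2 fold change of -0.36 ± 0.132 (SE) and an unadjusted p of 0.0195. Selenos, a selenoprotein that links Derl proteins to the p97 ATPase, measured 10.75, 13.8 and 12.1 CPM in WT and 10.5, 8.85 and 9.99 CPM in KO, with a log2 fold change of -0.32 and an unadjusted p of 0.0443. Both had no overlap between genotypes. Selenok, the other selenoprotein of the set, was at -0.07 with an interval of -0.37 to 0.23.

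Herpud1, a stress-inducible scaffold of the degradation complex, was at -0.37 with an unadjusted p of 0.0507, and the ubiquitin ligase Syvn1 was at -0.27. Its partner Sel1l was at 0.04, Derl2 at -0.02 and the mannosidase-like Edem1 at -0.06, all with overlapping libraries. Derl3 was below the filter: it had 7, 8 and 7 fragments in WT and 2, 2 and 1 in KO, or 0.284, 0.249 and 0.231 CPM against 0.0806, 0.0815 and 0.0374 CPM, all KO libraries being under 3 fragments.

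Levels were compared between genes only per length, as RPKM, counts scaled by library size and by the counted length of the gene. In WT the most abundant were Hspa5 (53.2 RPKM), Calr (42.5 RPKM), P4hb (38.3 RPKM), Atf4 (37.5 RPKM) and Herpud1 (32.7 RPKM). In KO, Hspa5 was at 27.9 RPKM, below Calr (34.8 RPKM), P4hb (33.5 RPKM) and Atf4 (31.8 RPKM). The sensors were among the scarcest, with Eif2ak3 at 0.228 RPKM and Ern1 at 0.756 RPKM in WT, against 2.89 RPKM for Atf6.

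The set as a whole was ordered by library as well as by genotype. The median log2 level of the 41 genes relative to the WT mean was 0.07, -0.04 and -0.06 in the WT libraries and -0.12, -0.44 and -0.30 in the KO libraries. KO replicate 2 was the lowest library for 22 of the 41 genes, where it was for 19.7% of all genes, and WT replicate 1 the highest for 20 of the 41, where it was for 20.7% of all genes. Their summed TMM-scaled level was 1389, 1397 and 1280 CPM in the WT libraries and 1156, 940.2 and 1006 CPM in the KO libraries, with no overlap between genotypes. Several calls rested on single libraries: without KO replicate 2, 4 genes were called lower (Hspa5, Hyou1, Manf and Sdf2l1) and 7 were lower by p alone, and without KO replicate 1, 13 were called lower.

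The promoter motifs were set beside the fold changes. The 9 tested genes with an ERSE ranged from -0.93 to -0.27 in log2 fold change with a median of -0.40, all of them below 0. The 26 with a promoter but no ERSE had a median of -0.27 and ranged from -1.15 (Trib3) to 0.54 (Eif2ak3). By sign, 34 of the 41 genes of the set (82.9%) and 50.6% of all genes were below 0. Hspa5 and Pdia6 were called among the former; Sdf2l1 and Dnajb9, whose windows held no match, were called among the latter, and Manf, Hyou1 and Atf6 were not in the promoter table. The 10 tested genes outside the set that carried an ERSE ranged from -0.75 (Xlr3c) to 0.44 (Pan2), with a median of -0.28. Of these, 7 of 10 were below 0, among them all 3 near-identical Xlr3 copies, and none had a p under 0.05. Whether the element goes with the fold change was not tested. The 5 genes with the C/EBP-ATF element ranged from -1.15 (Trib3) to 0.18 (Chac1).

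**Figure D4:**
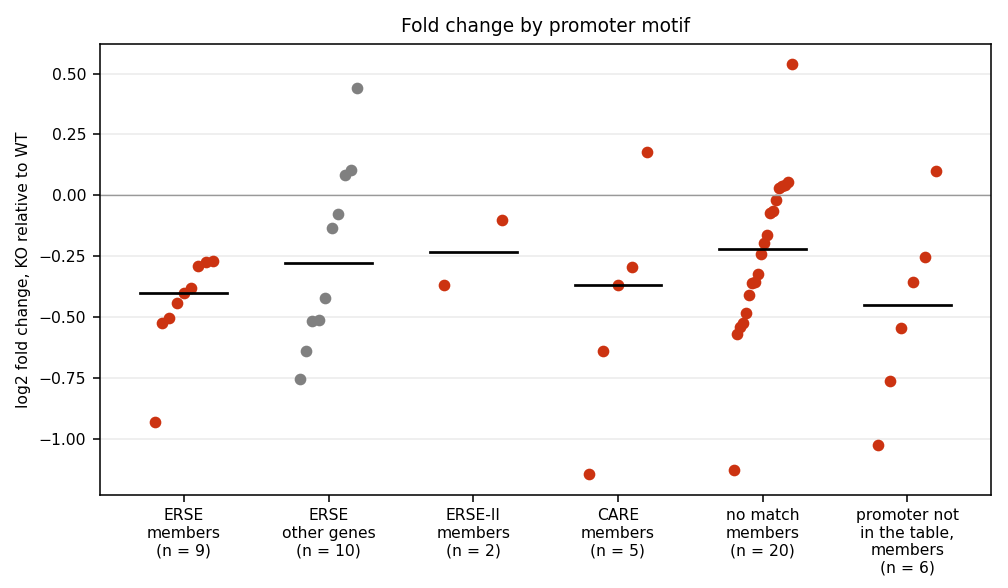
Log2 fold change of KO relative to WT by promoter motif: each point is 1 gene (red, genes of the set; grey, other tested genes with an ERSE) and each bar a median. Herpud1 is in both the ERSE-II and the C/EBP-ATF column (CARE). All 9 ERSE genes of the set lie below 0, as do 7 of the 10 others. By sign, 34 of all 41 tested genes of the set and 50.6% of all genes were below 0.

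The wider ER pathway was described from 176 further genes in 7 lists, of which 164 were tested. Of these, 129 (78.7%) were lower by sign, 3 (1.83%) were called lower and none higher, and the median log2 fold change was -0.12. The share called was below the 3.14% of all genes, while 17 (10.4%) were lower by p alone against 5.16% of all genes, and 1, the oxidoreductase Txndc16, was higher. Leaving out 1 library moved the 3 calls to 1 without WT replicate 1, 5 without KO replicate 2, 6 without WT replicate 3, 7 without WT replicate 2 and 12 without KO replicate 1.

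The glycosylation list had a median of -0.17 with 17 of 19 lower, and its subunit of the oligosaccharyltransferase Ostc was called lower, at 11.2, 7.85 and 8.86 CPM in WT and 6.49, 4.16 and 7.14 CPM in KO, a log2 fold change of -0.65. Stt3a, a catalytic subunit, was at -0.37 with an unadjusted p of 0.0172. The other catalytic subunit, Stt3b, was at -0.17 with an unadjusted p of 0.245 and overlapping libraries. Of the other translocon and signal peptide genes, 20 of 22 were lower with a median of -0.18. Sec61g, the third subunit of the channel, was called lower at 15.9, 15.1 and 12.5 CPM in WT and 9.26, 11.2 and 9.015 CPM in KO, a log2 fold change of -0.56. Spcs1, a signal peptidase subunit, had the lowest unadjusted p of the 164 (0.00155), at -0.49.

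Other folding factors had 22 of 26 lower, a median of -0.18 and no call. Other degradation genes had 22 of 27 lower, a median of -0.10 and no p under 0.05. Other oxidoreductases had a median of -0.05 over 20 genes and other UPR signalling genes -0.08 over 17, with no call in either. Of 33 further ATF4 targets, 23 were lower, the median was -0.07 and 1 was called lower, the proline synthesis enzyme Pycr1, at 3.08, 2.3 and 2.37 CPM in WT and 1.77, 1.47 and 1.53 CPM in KO.

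TA muscle holds cells other than fibers, and in bulk RNA fewer cells of a type cannot be told apart from less RNA per cell. Plasma cells are rich in ER chaperones; their list, which shares Xbp1 and Derl3 with the set, summed to 63.4 to 86.7 CPM in WT and 48.8 to 78.7 CPM in KO, most of it Xbp1 and Ighm. Over the 7 of 14 markers tested the median log2 fold change was 1.53, with 4 higher and 3 lower by sign. Ighm was called lower (-0.63) and Jchain higher (1.63), and Igha, Igkc and Ighg2b were at 2.21, 2.05 and 1.53 without a call. In KO replicates 1, 2 and 3, Jchain measured 2.62, 0.53 and 0.486 CPM, Igha 6.57, 0.815 and 0.412 CPM, and Igkc 7.81, 3.02 and 0.748 CPM. The median log2 level of the 7 markers relative to the WT mean was 2.51, 0.52 and -0.32 in these libraries. It was -0.08, -0.07 and -0.14 in the WT libraries, so the rise was largest in KO replicate 1. Ms4a1 and Tnfrsf17 stayed at or under 1 fragment in every library. Macrophage markers summed to 22.3 to 80.2 CPM in WT and 17.5 to 34.2 CPM in KO with Csf1r called lower, and fibroblast markers to 84.6 to 296 CPM in WT and 74.4 to 160 CPM in KO with none of 10 called. The upper end of both WT ranges was WT replicate 3 alone; the macrophage and fibroblast markers that passed the filter summed to 33.5 and 158.7 CPM in WT replicate 1, 22.1 and 84.6 CPM in WT replicate 2, and 79.2 and 296.5 CPM in WT replicate 3. Endothelial markers were all higher by sign, none called, at 84.1 to 134 CPM in WT and 125 to 143 CPM in KO. In 2 of the 8 every KO library lay above every WT library, against 7.53% of all genes. These were Flt1 (0.41, edgeR unadjusted p 0.00694) and Cdh5 (0.50, edgeR unadjusted p 0.00835). The part of these cells in the chaperone values was not tested.

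Of 11 markers of regenerating and denervated fibers, 5 were called lower (Myog, Runx1, Myod1, Chrng and Chrna1) and 6 did not pass the test, and the median log2 fold change was -1.10. Their median log2 level relative to the WT mean was -0.25, -0.13 and 0.43 in the WT libraries and -0.70, -0.94 and -1.18 in the KO libraries. As for the median of the chaperone and UPR genes, every KO library lay below every WT library. The highest and lowest libraries were WT replicate 3 and KO replicate 3 for these markers, and WT replicate 1 and KO replicate 2 for the chaperone and UPR genes. The sum of the 11 markers, nearly all of it Myh8, was 3120 to 4950 CPM in WT and 3710 to 4990 CPM in KO. Slow fiber markers were lower by sign in 7 of 8 with none called, at 42.8 to 101 CPM in WT and 34.5 to 52.7 CPM in KO. Epidermal markers were near background, 7 of 10 at 0 in every library, with Sbsn called lower, and of the T and NK cell markers only Cd3e was tested and was called higher. The part of fiber state in the chaperone values was not tested either. With the mitochondrially encoded genes left out of the fit, the same 7 genes of the set were called lower. Leaving them out changes the scaling only, and the part of the mitochondrial share in the chaperone values was not tested.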

How the data were processed

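RNA sequencing was performed on TA muscle of 3 WT and 3 KO mice aged 24 months. Per the study's methods, reads were aligned with Hisat2 and counted per gene with featureCounts. The authors deposited raw counts per gene with the counted length. The methods name GRCm38 and the submitters' processing notes GRCm39, so positions in the table were not used. A column of WT counts without a replicate number was taken as WT replicate 1, the number left over.

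Genes were tested with edgeR 4.0.16 in R 4.3.3 (filterByExpr, TMM scaling, robust quasi-likelihood F-test, Benjamini-Hochberg over 15623 genes), which was tested on simulated data first. Standard errors are the absolute log2 fold change divided by the square root of F. The study's own test, DESeq2 (version 1.42.0 here), was an alternative. CPM are TMM-scaled; log2 levels use a prior count of 1. With 3 libraries against 3, the smallest two-sided p of an exact permutation test is 0.1, reached whenever genotypes do not overlap. The labels give no batch, and do not say how the mice were related, so p-values measure the spread between these samples. Over the tested genes together, replicates differed by a chi-square of 21 to 79.3 per degree of freedom. Genes with many fragments weigh most in that figure, and for them counting error is small beside the spread between samples. It does not show the same for genes with few fragments, such as Sdf2l1 and Eif2ak3.

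The 42 genes, the lists and the motifs were chosen with earlier results of these data known. All genes of the set are accounted for; those called are given in every library, the others by role with the lowest p, the highest level and the defining gene as examples, and any further gene named was picked with its values in view. Of the 42, 1 symbol (Ddit3) had a second Ensembl row, which was not used, and of the 176 pathway genes Tusc3 was not matched. Alternatives covered the test, scaling, low-count filter, robust estimation, fold threshold, replicate block, mitochondrial genes and each library left out.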

Additional observations from a re-analysis of the deposited data

How the results depend on the processing

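Hspa5, Hyou1, Manf and Sdf2l1 were called lower in all 8 alternative fits and all 6 fits that left out 1 library. Atf6, Dnajb9 and Pdia6 were called in the same 8 but in 4, 3 and 2 of the 6. The 7 calls became 11 with no filter on low counts, 15 at a fold change of 1.2 and 2 (Manf and Sdf2l1) at an absolute log2 fold change over 1. Genes of the set with an adjusted p under 0.05 numbered 3 in DESeq2 and 7 with no filter, against 0; the cause was not tested. Leaving out 1 library gave 4 to 13 genes called lower (4 without KO replicate 2, 13 without KO replicate 1), 0 to 1 called higher (Chac1 without WT replicate 2, Eif2ak3 without KO replicate 3), 7 to 19 lower by p alone, 0 to 1 higher by p alone and 0 to 1 with an adjusted p under 0.05. The median log2 fold change of the set stayed between -0.41 and -0.28 in those fits.

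The sign of 9 genes with no call depended on the library left out: Chac1 ran from -0.26 to 1.397, Ddit3 from -0.0887 to 0.377, Ern1 from -0.12 to 0.15, Sil1 from -0.0364 to 0.25, Sel1l from -0.047 to 0.16, Ero1l from -0.015 to 0.0767, Ppp1r15a from -0.37 to 0.0492, Derl2 from -0.0583 to 0.0329 and Selenok from -0.19 to 0.0059. Over the log2 fold changes of single genes, 209 were the same in direction and call when a library was left out, 15 gained a call, 9 lost it and 13 changed sign; in the other alternatives 322 were the same and 5 gained a call.

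Replicate numbers are shared between the genotypes but nothing says that they pair the mice, and deviations of same-numbered libraries correlated at 0.0596, 0.044 and -0.0736. With a replicate block 8 genes were called lower, Pdia4 being the one added, 14 were lower by p alone and the median was -0.35. With 3 mice per genotype, several intervals span more than 1 on the log2 scale. Among them are those of Trib3, Asns and Eif2ak3, which had few fragments, and of Chac1, which varied widely within WT. The others are those of Sdf2l1, which was called lower, and of Sec61b, Pdia4, Creld2 and Atf6b.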
